A study of Mus musculus with 12 samples.

Results

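The antioxidant defence genes were examined here across whole mouse brains: 37 genes out of the 55385 in the deposited expression table, chosen by gene symbol for their place in the NRF2 pathway and in the enzyme systems that remove reactive oxygen species. All brains came from male wild-type C57/BL6J mice bought at 8 weeks of age, and each library was made from the brain of 1 perfused mouse. The 4 groups had 3 mice each. C_W mice were not stressed and were gavaged with water, C_O mice were not stressed and were gavaged with krill oil, MS_W mice went through chronic unpredictable mild stress (CUMS) and were gavaged with water, and MS_O mice went through CUMS and were gavaged with krill oil. Krill oil was given at 200 mg/kg per day for 5 weeks, and CUMS, a schedule of varied mild stressors, lasted 4 weeks. The control for the oil was an equal volume of water rather than another oil, so the oil as such and its krill components cannot be told apart.

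Transcripts were measured by paired-end sequencing of poly(A) RNA, and levels are given as FPKM, fragment counts scaled by transcript length and library depth. Values of a gene in the 3 mice of a group are always listed in the order C_W1, C_W64, C_W70, then MS_W31, MS_W75, MS_W95, then C_O15, C_O30, C_O72, then MS_O13, MS_O46, MS_O78. Group differences are log2 fold changes (log2FC) of FPKM + 1, which understate the change of genes of low level, and they were tested with limma with p-values adjusted over the 21393 genes with a mean of at least 0.1 FPKM. In "C_W vs. MS_W" and the other pairs, the difference is the second group minus the first. All 37 antioxidant genes were in the tested set.

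Cells keep superoxide, peroxides and reactive aldehydes low with layers of enzymes. Superoxide dismutases turn superoxide into hydrogen peroxide, and catalase, glutathione peroxidases and peroxiredoxins reduce peroxides with electrons that glutathione and thioredoxin carry from NADPH. Many of these genes are switched on by the transcription factor NRF2 (gene Nfe2l2), which KEAP1 holds back until its cysteines are oxidised, and which then binds antioxidant response elements (ARE) in promoters. Metallothioneins, small cysteine-rich proteins that bind zinc and copper, are induced by metals through metal response elements (MRE) and by glucocorticoids and oxidants. In brain, glutathione synthesis, metallothioneins and many glutathione transferases are known as features of astrocytes.

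The promoters of Mt2, Mt1 and Gclm are shown because these genes had among the largest differences between libraries and carry letters that match the ARE or MRE core. The windows are the 250 bases before the RefSeq start on assembly GRCm38.p6, read 5′ to 3′ on the gene's strand, and capitals mark matches to the ARE core TGACNNNGC or the MRE core TGCGCNC or TGCACNC on either strand.
Mt2, chr8:94172368-94172617, + strand: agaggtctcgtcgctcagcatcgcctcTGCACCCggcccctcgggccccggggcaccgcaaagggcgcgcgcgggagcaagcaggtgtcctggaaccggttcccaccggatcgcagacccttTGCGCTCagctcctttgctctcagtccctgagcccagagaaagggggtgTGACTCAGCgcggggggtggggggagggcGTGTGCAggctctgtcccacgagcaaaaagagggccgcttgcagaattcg
Mt1, chr8:94178839-94179088, + strand: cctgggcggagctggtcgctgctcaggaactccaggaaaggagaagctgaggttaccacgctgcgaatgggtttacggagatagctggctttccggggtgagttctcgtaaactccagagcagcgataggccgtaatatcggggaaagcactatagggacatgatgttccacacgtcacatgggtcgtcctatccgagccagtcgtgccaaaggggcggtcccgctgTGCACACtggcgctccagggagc
Gclm, chr3:122245307-122245556, + strand: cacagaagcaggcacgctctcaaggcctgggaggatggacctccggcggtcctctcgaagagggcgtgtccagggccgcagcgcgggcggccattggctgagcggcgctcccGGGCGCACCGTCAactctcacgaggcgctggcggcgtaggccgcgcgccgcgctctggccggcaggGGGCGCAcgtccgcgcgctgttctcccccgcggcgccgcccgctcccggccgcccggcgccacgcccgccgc
RefSeq windows were matched for 31 of the 37 genes by symbol. The ARE core was found for 7 of these 31 genes, namely Nfe2l2, Gclm, Sod1, Prdx1, Txnrd1, Gstm5 and Mt2, and for 11.5% of all 27025 genes with a window. The MRE core was found for 9 genes, namely Gclm, Gpx7, Prdx4, Srxn1, Txnrd2, Gstm1, Gstm5, Mt1 and Mt2, and for 23.8% of all genes with a window. In Mt2 and in Prdx1 the ARE core also holds an AP-1 site (TGANTCA). The AP-1 site was found for 5 of the 31 genes and for 7.82% of all genes with a window. In Gclm an ARE core and an MRE core overlap. These matches describe the letters of the windows and say nothing of binding.

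The libraries held between 50912906 and 75678721 estimated read counts, with a median of 59331216. C_O72 and MS_W95 stood apart from the rest: their correlation with each other over the tested genes (log2 of FPKM + 1) was 0.970, neither reached more than 0.937 with another library, and the other 10 libraries had correlations of at least 0.959 among themselves. The summed FPKM of 10 astrocyte genes was 1352 in C_O72 and 1262 in MS_W95 against 499.7 to 608 in the other 10 libraries. Of these 10 genes, both libraries were above the other 10 in 6 and below them in 1, Slc1a2 (67.5 and 60.1 against 86.7 to 133). Most of the difference in the sum came from Aldoc and S100b. Aldoc was at 649 and 603 FPKM against 198 to 260, and S100b at 392 and 329 against 69.3 to 89.6. Slc1a3 was lowest of the 12 libraries in C_O72 (35.1) and highest in MS_W95 (92.1). The sum of 8 oligodendrocyte genes was 1385 and 757 against 288 to 559, and that of 8 choroid plexus genes 4838 and 1820 against 5.33 to 843. Most of the choroid plexus sum was Ttr (4772 and 1784 FPKM), and 7 of the 8 genes were above the other 10 libraries in both. The sum of 7 hindbrain genes, mostly Hox genes, was 66.2 in C_O72 and 23.4 in MS_W95, whereas it did not exceed 0.0649 in any of the other 10 libraries, all of which are labelled whole brain. The 7 cerebellar genes summed to 559 and 1341 in C_O72 and MS_W95 against 33.0 to 97.6 elsewhere, and the 7 cortical genes to 36.3 and 48.8 against 133 to 386. Of 8 microglial genes, both libraries were below the other 10 in 4 and above them in 0. Results are therefore given with 12 libraries and, where the value moves, also with 10. In bulk tissue, fewer cells of a type and less RNA per cell cannot be told apart.

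All 37 genes were well above the detection floor. Mean levels over the 12 libraries ran from 1.76 FPKM for Slc7a11 to 186 FPKM for Mt3, 23 genes had a mean of at least 10 FPKM, and 36 were above 50% of all tested genes. The 5 genes with a mean of at least 100 FPKM were the metallothioneins Mt3, Mt2 and Mt1, the lipid hydroperoxide reductase Gpx4 and the glutathione transferase Gstm1. Between the lowest and the highest of the 12 libraries, the median gene spanned 1.92-fold, and 1.44-fold once C_O72 and MS_W95 were left out. Among the 11760 tested genes with a mean at least that of Slc7a11, the median span was 1.88-fold and 1.54-fold.

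The antioxidant genes were at their highest in the libraries that stood apart. Of the 37 genes, 25 had their highest level in C_O72 and 4 in MS_W95, together 78.4% against 37.9% of all tested genes. In 17 genes both libraries were above all of the other 10, a pattern seen in 16.3% of all tested genes, and in none were both below, which held for 11.7%. These 17 were Nfe2l2, Hmox2, Nqo1, Gclm, Gss, Sod3, Cat, Gpx3, Gpx8, Prdx1, Prdx4, Prdx5, Txnrd1, Gsta4, Gstm1, Mt1 and Mt2. The mean of the pair over the mean of the other 10 libraries was 2.87 for Gpx3, 2.61 for Nqo1, 2.29 for Sod3, 2.2 for Gsta4 and 2.19 for Gpx8. At the other end it was 0.92 for Txnrd2, 0.961 for Gstm5 and 0.97 for Gclc, and the median of the 37 genes was 1.29 against 1.04 for all tested genes. Because one library of the pair is in C_O and the other in MS_W, these levels enter all 4 pairwise comparisons. The part in them of astrocyte, oligodendrocyte, choroid plexus, hindbrain, cerebellar, cortical or other RNA was not tested.

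**Figure D1:**
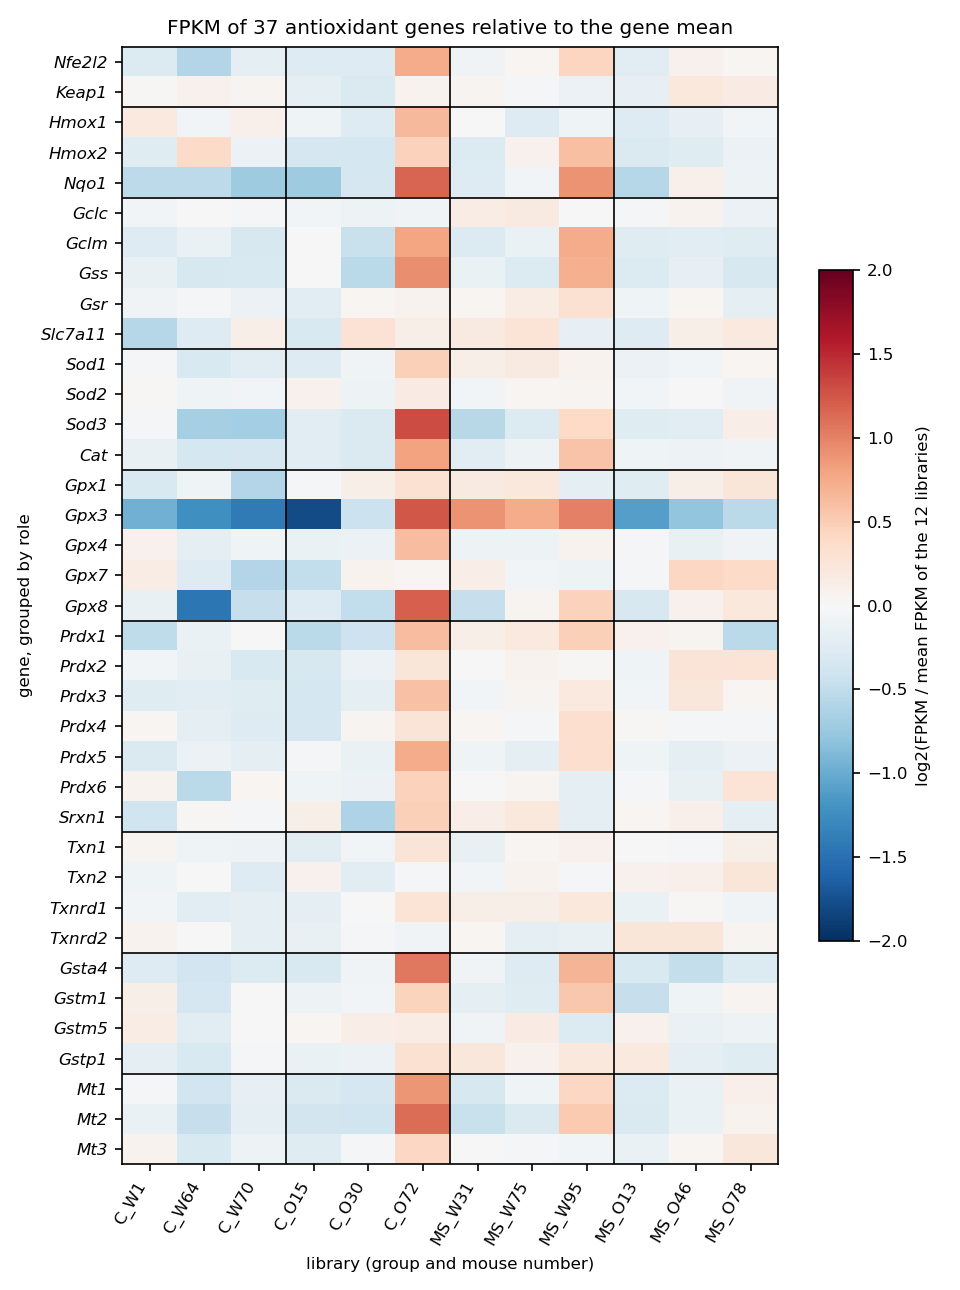
Heat map of the 37 antioxidant genes (rows, grouped by role) in the 12 libraries (columns), coloured by log2 of FPKM over the gene's mean of 12 libraries. The C_O72 column is the reddest, with 25 genes at their highest, and MS_W95 holds another 4, while the Gpx3 row is red in all 3 MS_W libraries.

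No antioxidant gene passed an adjusted limma p of 0.05 in any comparison, and at this threshold 1 of all tested genes passed in C_W vs. MS_W, C_O vs. MS_O and MS_W vs. MS_O each (0.00467%) and 0 in C_W vs. C_O and in the interaction (0%). At an unadjusted limma p under 0.05, 4 antioxidant genes were counted in C_W vs. MS_W (background 10.5%), 0 in C_O vs. MS_O (8.88%), 1 in C_W vs. C_O (3.55%), 1 in MS_W vs. MS_O (6.09%) and 1 in the interaction (7.23%). The interaction is the stress difference with krill oil, MS_O minus C_O, less the stress difference with water, MS_W minus C_W. By edgeR on the estimated counts 0 antioxidant genes passed the adjusted threshold in any comparison (background 0.00467% or 0% as with limma), and 1, 1, 2, 2 and 3 had an unadjusted p under 0.05 in the same order, against 9.37%, 8.54%, 4.47%, 5.65% and 8.1% of all tested genes. By DESeq2, Gpx3 passed in C_W vs. MS_W (background 1.82%) and in the interaction (background 0.706%), and no antioxidant gene passed in the others (background 0.804%, 0.252% and 0.369%). At an unadjusted p under 0.05, DESeq2 counted 1, 1, 3, 2 and 4 antioxidant genes against 11.6%, 10.5%, 5.82%, 7.25% and 9.98% of all tested genes.

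Under stress with water (C_W vs. MS_W), the question was which antioxidant genes differed in stressed brains. The 4 genes with an unadjusted p under 0.05 were Gpx3, Txnrd1, Gstp1 and Gpx1, all higher in MS_W (background for higher genes 6.71%). The log2FC was above 0 for 33 of the 37 genes against 62.1% of all tested genes, and its median was 0.21 against 0.06. In 11 genes the 3 MS_W mice were all above the 3 C_W mice and in 0 all below, where the background was 16.3% and 8.22%: Nfe2l2, Nqo1, Gsr, Sod1, Gpx3, Prdx1, Prdx2, Prdx3, Txnrd1, Gsta4 and Gstp1. The MS_W mice were all above in 15 genes with 10 libraries and all below in 0, where the background was 25.2% and 13.7%. With 10 libraries, 28 genes had a log2FC above 0 (background 59.6%), the median was 0.12, and 8 had an unadjusted p under 0.05 (background 15.4%, and 9.66% higher), namely Gpx3, Sod1, Gpx1, Txnrd1, Prdx3, Gclc, Gstp1 and Nfe2l2, all higher in MS_W. The counts also depended on the scaling. After quantile normalization or centring on the median, 1 antioxidant gene, Gpx3, had an unadjusted limma p under 0.05, the log2FC was above 0 for 32 and 29 genes, and its median was 0.16 and 0.12. Among all tested genes the same step turned 1435 higher and 810 lower genes at an unadjusted p under 0.05 into 936 and 1130 by quantile normalization and 683 and 1485 by centring.

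Under stress with krill oil (C_O vs. MS_O), the direction of the list depended on C_O72. With 12 libraries 9 of the 37 genes had a log2FC above 0 (background 56.7%) and the median was -0.09, whereas with 10 libraries 30 did (background 61%) and the median was 0.12. The mice of the groups did not overlap in 2 genes with 12 libraries (background 12.2%, and 8.9% higher), Txn2 and Txnrd2, both higher in MS_O. With 10 libraries they did not overlap in 11 genes, all higher in MS_O (background 26.8%, and 18.9% higher). Without C_O72 and MS_W95 3 genes had an unadjusted limma p under 0.05 (background 13.6%, and 9.62% higher), Prdx3, Prdx2 and Keap1, all higher in MS_O, and 0 passed the adjusted threshold (background 0.014%). With 12 libraries, 1432 higher and 467 lower genes among all tested genes at an unadjusted limma p under 0.05 became 974 and 797 by quantile normalization and 758 and 1267 by centring, and the median of the antioxidant genes became -0.11 and -0.17.

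For krill oil without stress (C_W vs. C_O), 33 genes had a log2FC above 0 with 12 libraries (background 50.4%; median 0.17) and 20 with 10 libraries (background 45%; median 0.01). The groups did not overlap in 2 genes (background 9.42%), Gpx1, higher in C_O (background 4.08%), and Gclc, lower in C_O (background 5.34%). For krill oil under stress (MS_W vs. MS_O), 11 genes had a log2FC above 0 with 12 libraries (background 46.3%; median -0.07) and 16 with 10 (background 49.8%; median -0.02). Here the groups did not overlap in 7 genes (background 12.3%): Sod1, Gpx3, Prdx1, Txnrd1 and Gsta4 were lower in MS_O (background 7.66%), and Txn2 and Txnrd2 were higher (background 4.64%). C_W vs. MS_W and MS_W vs. MS_O share the MS_W mice, so a gene high in those mice enters both with opposite signs. The interaction was above 0 for 6 genes with 12 libraries (background 47.4%; median -0.26), among them Keap1, Txn2 and Txnrd2, and for 16 with 10 libraries (background 52.7%; median -0.03).

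**Figure D2:**
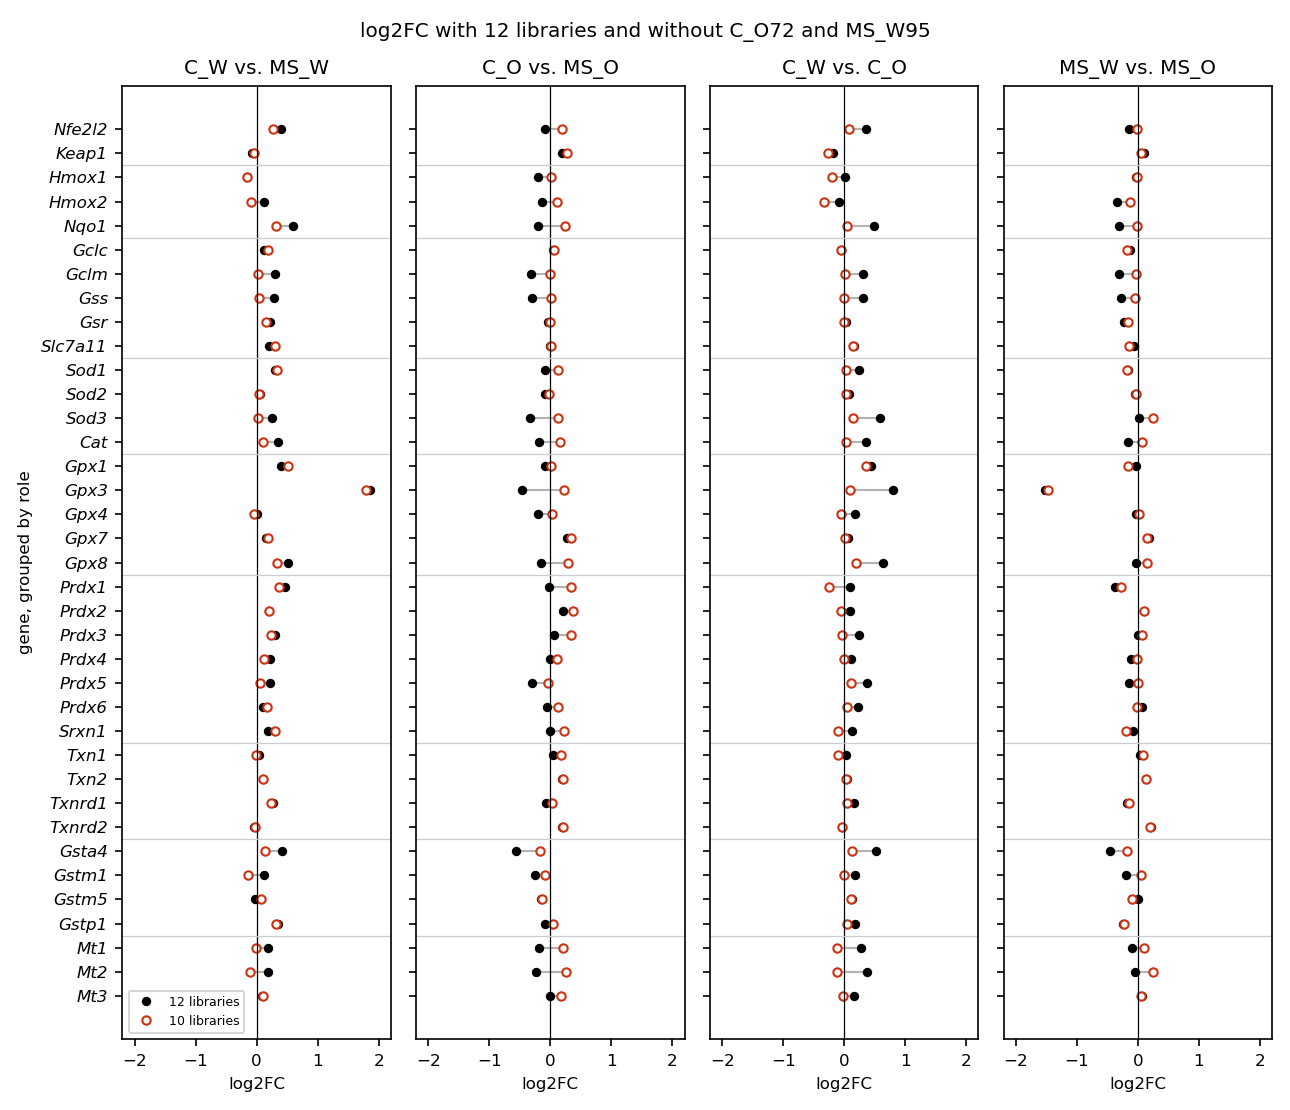
log2FC of FPKM + 1 (x axis) for the 37 genes (y axis, grouped by role) in the 4 pairwise comparisons, with 12 libraries (filled points) and without C_O72 and MS_W95 (open points). In C_O vs. MS_O the points move to the right without the pair, from a median of -0.09 to 0.12, while Gpx3 keeps its place in C_W vs. MS_W (1.86 and 1.80) and in MS_W vs. MS_O (-1.53 and -1.47).

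The regulators were Nfe2l2, which encodes NRF2, and Keap1, its repressor. Nfe2l2 had FPKM values of 3.83, 3.09 and 4.04 in C_W, 4.44, 4.79 and 6.27 in MS_W, 3.902, 3.87 and 7.78 in C_O and 4.001, 4.93 and 4.78 in MS_O. Its lowest MS_W mouse was above its highest C_W mouse, and C_O72 and MS_W95 held the highest values. The log2FC in C_W vs. MS_W was 0.40 (limma, SE 0.22, adjusted p = 0.542) and 0.28 with 10 libraries. Keap1 had FPKM values of 12.2, 12.8 and 12.5 in C_W, 12.4, 11.8 and 10.999 in MS_W, 10.6, 9.82 and 12.5 in C_O and 10.7, 13.8 and 13.5 in MS_O. All groups overlapped for Keap1, which spanned 1.41-fold over the 12 libraries, and it was among the 4 genes with a lower mean in MS_W than in C_W.

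Heme oxygenase 1 (Hmox1) and heme oxygenase 2 (Hmox2) degrade heme, and Nqo1 reduces quinones. Nqo1, a classical NRF2 target at chromosome 8, 107388225 to 107403206, reverse strand (mm10), had FPKM values of 2.36, 2.36 and 2.09 in C_W, 2.85, 3.28 and 6.37 in MS_W, 2.08, 2.71 and 7.64 in C_O and 2.28, 3.67 and 3.18 in MS_O. C_O72 and MS_W95 were clearly above all others, which lay between 2.08 and 3.67 FPKM, and even without MS_W95 the MS_W mice were above the C_W mice. The log2FC in C_W vs. MS_W was 0.60 (limma, SE 0.36, adjusted p = 0.565) with 12 libraries and 0.31 (limma, SE 0.16, adjusted p = 0.401) with 10. Hmox2 had FPKM values of 18.9, 28.9 and 20.6 in C_W, 18.4, 23.6 and 33.7 in MS_W, 17.7, 17.5 and 30.5 in C_O and 18.2, 18.8 and 20.4 in MS_O. Its highest values were in MS_W95, C_O72 and C_W64, and 32.1% of its 100-base stretches also occur in other genes, mainly Cdip1, whose exons overlap it on the opposite strand. Hmox1 lay between 2.92 and 5.45 FPKM with its highest value in C_O72.

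Glutathione is made by glutamate-cysteine ligase (catalytic subunit Gclc, modifier subunit Gclm) and glutathione synthetase (Gss), is recycled by glutathione reductase (Gsr), and depends on cystine taken up by Slc7a11. Gclc had FPKM values of 14.7, 15.3 and 14.98 in C_W, 16.9, 17.3 and 15.2 in MS_W, 14.6, 14.3 and 14.6 in C_O and 15.1, 16.02 and 14.01 in MS_O. It was the steadiest gene of this group with a 1.23-fold span, and its C_O mice were all below its C_W mice by a small margin (log2FC -0.05, SE 0.09, limma, adjusted p = 0.934). Gclm, whose promoter is printed above, had FPKM values of 5.72, 6.23 and 5.45 in C_W, 5.62, 6.18 and 11.4 in MS_W, 6.82, 4.99 and 11.8 in C_O and 5.76, 5.85 and 5.76 in MS_O. C_O72 and MS_W95 held nearly the same level, and the other 10 libraries lay between 4.99 and 6.82 FPKM, so the rate-limiting enzyme's modifier subunit followed the libraries while its catalytic subunit did not (pair over the other 10 libraries 1.99 and 0.97).

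Gss repeated the Gclm pattern at 5.70 FPKM in C_O72 and 4.88 FPKM in MS_W95 against 2.06 to 2.95 FPKM in the other 10. Gsr had FPKM values of 9.097, 9.31 and 8.79 in C_W, 9.77, 10.6 and 11.8 in MS_W, 8.26, 9.82 and 10.02 in C_O and 8.97, 9.79 and 8.298 in MS_O. Each MS_W mouse was above each C_W mouse, and the log2FC was 0.21 (limma, SE 0.11, adjusted p = 0.502) in C_W vs. MS_W and -0.22 (limma, SE 0.11, adjusted p = 0.819) in MS_W vs. MS_O. Slc7a11, the least abundant of the 37 genes, had FPKM values of 1.18, 1.47 and 1.903 in C_W, 1.998, 2.14 and 1.58 in MS_W, 1.43, 2.15 and 1.91 in C_O and 1.48, 1.904 and 2.01 in MS_O. Its highest value was in C_O30, its lowest in C_W1, and all groups overlapped.

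The superoxide dismutases act in the cytosol (Sod1), in mitochondria (Sod2) and outside the cell (Sod3), and catalase (Cat) breaks down hydrogen peroxide in peroxisomes. Sod1 had FPKM values of 48.3, 40.2 and 42.3 in C_W, 53.7, 55.99 and 52.3 in MS_W, 41.6, 47.4 and 69.5 in C_O and 46.03, 48.1 and 50.8 in MS_O. The MS_W mice were all above the C_W mice and all above the MS_O mice, and the log2FC in C_W vs. MS_W was 0.31 (limma, SE 0.16, adjusted p = 0.532), or 0.33 (limma, SE 0.10, adjusted p = 0.165) with 10 libraries. Sod3 had FPKM values of 4.61, 2.95 and 2.91 in C_W, 3.18, 3.85 and 6.12 in MS_W, 3.99, 3.82 and 11.5 in C_O and 3.95, 3.99 and 5.13 in MS_O. C_O72 was far above every other library at 11.5 FPKM, MS_W95 followed at 6.12, and without C_O72 the C_O mice were within the range of the C_W mice.

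Cat had FPKM values of 17.2, 14.9 and 15.01 in C_W, 16.4, 17.7 and 28.2 in MS_W, 16.4, 15.6 and 33.02 in C_O and 17.9, 17.7 and 18.03 in MS_O. C_O72 and MS_W95 were above all other libraries, and the log2FC of 0.36 in C_W vs. C_O became 0.02 with 10 libraries. Sod2 was nearly flat between 18.8 and 22.7 FPKM.

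The glutathione peroxidases held the largest group difference. Gpx3, the secreted plasma glutathione peroxidase, at chromosome 11, 54902453 to 54910377, forward strand (mm10), had FPKM values of 5.03, 4.18 and 3.66 in C_W, 18.2, 16.4 and 19.6 in MS_W, 2.83, 7.29 and 23.1 in C_O and 4.57, 5.67 and 6.75 in MS_O. All 3 MS_W mice were at least 16.4 FPKM and far above all C_W and all MS_O mice, while in C_O the values ran from the lowest of the 12 libraries (C_O15) to the highest (C_O72). Group means were 4.29 ± 0.688 FPKM in C_W, 18.1 ± 1.61 in MS_W, 11.1 ± 10.6 in C_O and 5.66 ± 1.09 in MS_O (mean ± SD, n = 3 each), a 4.21-fold higher mean in MS_W than in C_W.

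For Gpx3 the log2FC was 1.86 in C_W vs. MS_W (limma, SE 0.50, adjusted p = 0.281), and 0.238% of all tested genes had a larger absolute log2FC. In MS_W vs. MS_O it was -1.53 (limma, SE 0.50, adjusted p = 0.768), and the interaction was -2.33 (limma, SE 0.70, adjusted p = 0.665). With 10 libraries the difference in C_W vs. MS_W was 1.80 (SE 0.29) and passed (limma, adjusted p = 0.0321), where 1.15% of all tested genes passed, while MS_W vs. MS_O (-1.47, limma, adjusted p = 0.134) and the interaction (-1.57, limma, adjusted p = 0.363) did not. Leaving out C_O72 alone, which is in neither group of C_W vs. MS_W but enters the shared estimate of the spread, also gave a call there (limma, adjusted p = 0.0197). Over all alternatives the adjusted p in C_W vs. MS_W ranged from 0.00989 to 0.657, with a log2FC of 1.77 to 2.06.

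Marker lists of other regions moved with Gpx3 in some of these libraries. The 4 libraries with the most Gpx3, C_O72, MS_W95, MS_W31 and MS_W75, were those with the lowest sums of the 7 cortical genes, 36.3, 48.8, 141 and 133 FPKM, against 229 to 386 in the other 8. In C_W vs. MS_W, 6 of the 7 cortical genes were lower in all 3 MS_W mice than in all 3 C_W mice. The choroid plexus sum was highest in C_O72 and MS_W95, 4838 and 1820 FPKM, which also had the most Gpx3, but it was 12.96 and 8.12 in MS_W31 and MS_W75, and C_W1 and C_O15 had sums of 843 and 818 with 5.03 and 2.83 FPKM of Gpx3. The hypothalamic sum was highest in MS_W31 and MS_W75, 125 and 115 FPKM, against 2.74 to 58.2 in the other 10 libraries, with MS_W95 at 5.14. Its genes differed: Avp, Oxt and Hcrt were highest in MS_W31 and MS_W75, Trh in MS_O78 and MS_O46, and Agrp in C_O30. Pmch and Pomc were highest in MS_W31, at 34.0 and 4.89 FPKM, but were at 0.880 and 0.724 in MS_W75. The striatal sum was also highest in MS_W31 and MS_W75, 669.9 and 956 FPKM against 91.5 to 566 elsewhere. The part of these regions in the Gpx3 level was not tested.

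**Figure D3:**
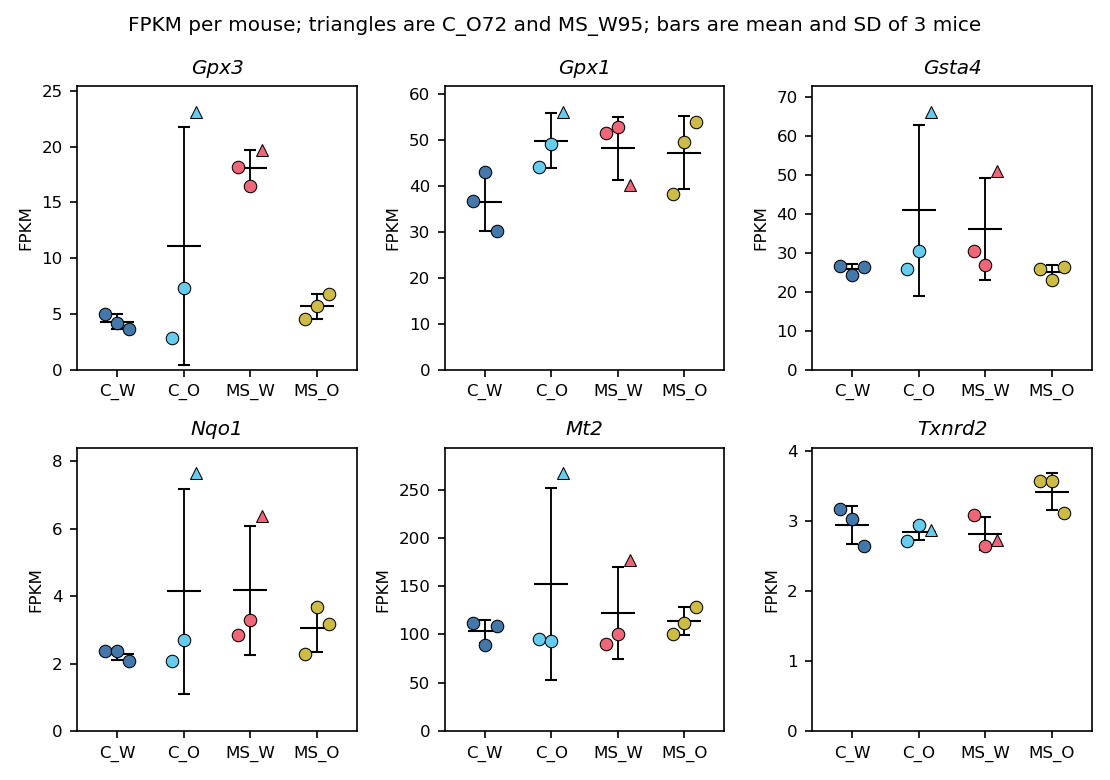
FPKM of Gpx3, Gpx1, Gsta4, Nqo1, Mt2 and Txnrd2 (y axes from 0) per mouse in the 4 groups, with group mean and SD of 3 mice as bars and C_O72 and MS_W95 as triangles. Gpx3 is at 16.4 to 19.6 FPKM in all 3 MS_W mice, and in Gsta4, Nqo1 and Mt2 the triangles are the highest points of all 12.

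Gpx1, the abundant cytosolic and mitochondrial glutathione peroxidase, had FPKM values of 36.7, 42.96 and 30.2 in C_W, 51.6, 52.8 and 40.3 in MS_W, 44.2, 49.2 and 56.1 in C_O and 38.4, 49.6 and 53.96 in MS_O. Each C_O mouse was above each C_W mouse, and the log2FC was 0.44 in C_W vs. C_O (limma, SE 0.17, adjusted p = 0.908) and 0.39 in C_W vs. MS_W (limma, SE 0.17, adjusted p = 0.469). Gpx1 did not follow the pair of libraries, since MS_W95 was the lowest MS_W mouse. Gpx8, a glutathione peroxidase of the endoplasmic reticulum, had FPKM values of 3.599, 1.47 and 2.8999 in C_W, 2.897, 4.14 and 5.44 in MS_W, 3.33, 2.81 and 9.09 in C_O and 3.17, 4.24 and 4.58 in MS_O. C_O72 held the highest and C_W64 the lowest value, and the log2FC of 0.64 in C_W vs. C_O (limma, SE 0.36, adjusted p = 0.908) was 0.20 with 10 libraries.

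Gpx4, which reduces lipid hydroperoxides in membranes, had FPKM values of 146, 122 and 129 in C_W, 128, 128 and 144 in MS_W, 126, 128 and 211 in C_O and 135, 124 and 132 in MS_O. Only C_O72 left the range of 122 to 146 FPKM, and 25.2% of the 100-base stretches of Gpx4 also occur in other genes, mainly the pseudogene Gpx4-ps2. Gpx7, another peroxidase of the endoplasmic reticulum, had FPKM values of 2.94, 2.21 and 1.76 in C_W, 2.91, 2.56 and 2.46 in MS_W, 1.87, 2.79 and 2.71 in C_O and 2.57, 3.53 and 3.43 in MS_O. It was highest in MS_O46 and MS_O78 and overlapped between all groups.

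Peroxiredoxins reduce peroxides with thioredoxin and sulfiredoxin (Srxn1) restores them after overoxidation. Prdx5, found in mitochondria and peroxisomes, was the most abundant, with FPKM values of 57.1, 64.9 and 61.7 in C_W, 65.8, 61.8 and 88.1 in MS_W, 67.9, 64.1 and 117 in C_O and 66.2, 62.05 and 64.8 in MS_O. C_O72 and MS_W95 were above the other 10 libraries, which lay between 57.1 and 67.9 FPKM, and the log2FC in C_W vs. C_O was 0.38 (limma, SE 0.21, adjusted p = 0.908) or 0.11 with 10 libraries. Prdx4, of the endoplasmic reticulum, was the least abundant, with FPKM values of 7.61, 6.51 and 6.202 in C_W, 7.64, 7.205 and 9.403 in MS_W, 5.91, 7.71 and 8.82 in C_O and 7.54, 7.28 and 7.18 in MS_O. MS_W95 and C_O72 again held its highest values.

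Cytosolic Prdx1 had FPKM values of 27.4, 35.6 and 38.7 in C_W, 42.3, 44.6 and 54.1 in MS_W, 26.7, 29.3 and 59.9 in C_O and 41.5, 40.5 and 26.9 in MS_O. All MS_W mice were above all C_W mice and above all MS_O mice, but MS_W31 and MS_W75 exceeded the highest C_W and MS_O values by little (42.3 and 44.6 against 38.7 and 41.5 FPKM). Mitochondrial Prdx3 had FPKM values of 32.7, 33.04 and 32.8 in C_W, 37.2, 40.4 and 44.5 in MS_W, 30.4, 33.7 and 58.5 in C_O and 37.5, 45.4 and 39.8 in MS_O. The C_W mice differed by little and all MS_W and MS_O mice were above them, with a log2FC of 0.30 in C_W vs. MS_W, and of 0.06 in C_O vs. MS_O that became 0.34 (limma, adjusted p = 0.335) without C_O72 and MS_W95. Prdx2, Prdx6 and Srxn1 ranged from 45.4 to 68.6, 23.7 to 47.5 and 25.4 to 53.6 FPKM.

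The thioredoxin system carries electrons to the peroxiredoxins, with a cytosolic pair (Txn1, Txnrd1) and a mitochondrial pair (Txn2, Txnrd2). Txnrd1, an NRF2 target, had FPKM values of 7.81, 6.99 and 7.19 in C_W, 8.79, 8.77 and 9.38 in MS_W, 7.15, 8.12 and 9.85 in C_O and 7.45, 8.27 and 7.77 in MS_O. The MS_W mice were all above the C_W and the MS_O mice, with a log2FC of 0.26 in C_W vs. MS_W (limma, SE 0.11, adjusted p = 0.460). Txn1 had FPKM values of 44.6, 40.8 and 40.3 in C_W, 38.9, 44.5 and 45.8 in MS_W, 36.8, 41.6 and 51.5 in C_O and 43.3, 42.2 and 46.9 in MS_O. It overlapped between all groups and its log2FC was between 0.03 and 0.04 in each of the 4 pairwise comparisons.

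The mitochondrial pair had another order. Txnrd2 had FPKM values of 3.16, 3.02 and 2.63 in C_W, 3.08, 2.64 and 2.72 in MS_W, 2.71, 2.94 and 2.87 in C_O and 3.56, 3.56 and 3.11 in MS_O. The MS_O mice were all above the C_O and the MS_W mice, with a log2FC of 0.20 in C_O vs. MS_O (limma, SE 0.10, adjusted p = 0.605) and 0.21 in MS_W vs. MS_O (limma, SE 0.10, adjusted p = 0.820). Txn2 had FPKM values of 14.6, 15.6 and 12.98 in C_W, 14.9, 16.3 and 15.2 in MS_W, 16.4, 13.4 and 15.1 in C_O and 16.5, 16.7 and 18.4 in MS_O. Its MS_O mice were also all above the C_O and MS_W mice, with log2FC values of 0.19 (limma, SE 0.10, adjusted p = 0.619) and 0.14. For both genes the difference in C_O vs. MS_O was about as large with 10 libraries (0.20 each). Over all alternatives that difference ranged from 0.12 to 0.25 for Txnrd2 and from 0.11 to 0.26 for Txn2.

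Glutathione S-transferases couple glutathione to reactive compounds. Gsta4, which clears the lipid peroxidation product 4-hydroxynonenal, had FPKM values of 26.7, 24.4 and 26.3 in C_W, 30.4, 26.8 and 50.96 in MS_W, 25.9, 30.5 and 66.1 in C_O and 25.7, 23.05 and 26.3 in MS_O. C_O72 and MS_W95 were above the other 10 libraries by a wide margin, and the log2FC of -0.57 in C_O vs. MS_O (limma, SE 0.32, adjusted p = 0.626) was -0.16 with 10 libraries. Its interaction was -0.98 (limma, SE 0.45, adjusted p = 0.665) with 12 libraries and -0.31 with 10.

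Gstm1, of the mu class, had FPKM values of 134, 97.7 and 123 in C_W, 108, 105 and 180.04 in MS_W, 115, 119.6 and 169 in C_O and 90.2, 117 and 128 in MS_O. MS_W95 and C_O72 held the highest values and all groups overlapped. Gstp1, of the pi class, had FPKM values of 43.5, 39.9 and 47.8 in C_W, 57.3, 52.3 and 57.1 in MS_W, 44.7, 45.2 and 60.7 in C_O and 56.3, 43.1 and 41.4 in MS_O. The MS_W mice were all above the C_W mice, with a log2FC of 0.34 (limma, SE 0.15, adjusted p = 0.468), but MS_O13 was as high as they were and 25.1% of its 100-base stretches also occur in other genes, mainly its neighbour Gstp2. Gstm5 was the only transferase here without a higher mean in the pair, with a range of 79.1 to 107 FPKM.

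The metallothionein genes lie in a row on the forward strand of chromosome 8 (mm10), Mt3 at 94152607 to 94154146, Mt2 at 94172664 to 94173568 and Mt1 at 94179082 to 94180327, so that 18517 bases separate Mt3 from Mt2 and 5513 bases Mt2 from Mt1. Mt1 had FPKM values of 110.2, 86.2 and 101 in C_W, 90.03, 107 and 149 in MS_W, 92.8, 89.7 and 209 in C_O and 93.6, 103 and 121 in MS_O. Mt2 had FPKM values of 112, 89.1 and 109 in C_W, 90.2, 100.01 and 177 in MS_W, 95.3, 93.6 and 267 in C_O and 100.2, 112 and 129 in MS_O. The neighbours Mt1 and Mt2 had nearly the same level and the same order of libraries at the top, C_O72, then MS_W95, then MS_O78.

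Mt3, the neuronal and astrocytic form, had FPKM values of 196, 151 and 173 in C_W, 186, 183 and 179 in MS_W, 158, 182 and 247 in C_O and 171, 191 and 218 in MS_O. C_O72 was again the highest, but MS_W95 was within the range of the others, and the pair over the other 10 libraries was 1.18 for Mt3 against 1.80 for Mt1 and 2.16 for Mt2. The log2FC of Mt2 in C_O vs. MS_O was -0.24 (limma, SE 0.38, adjusted p = 0.869) with 12 libraries and 0.26 with 10, and that of Mt1 went from -0.19 to 0.21. For Mt2, 22.4% of the 100-base stretches also occur in other genes, mainly Gm45774, whose exons overlap it on the opposite strand.

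Levels were also summed over the genes of each role. The metallothioneins had summed FPKM of 418, 327 and 382 in C_W, 366, 390.1 and 505 in MS_W, 346, 365 and 723 in C_O and 364, 407 and 468 in MS_O. The peroxiredoxins and sulfiredoxin had summed FPKM of 246, 255 and 259 in C_W, 288, 295 and 319 in MS_W, 251, 245 and 413 in C_O and 280.1, 296 and 283 in MS_O. The glutathione peroxidases had summed FPKM of 194, 173 and 168 in C_W, 204, 204 and 212 in MS_W, 178, 189.7 and 302 in C_O and 183, 187 and 201 in MS_O. C_O72 had the highest sum in all roles except glutathione synthesis and recycling, where MS_W95 was the highest. The MS_W mice were all above the C_W mice in 5 of the 9 sums, namely regulators, glutathione synthesis and recycling, superoxide dismutases and catalase, glutathione peroxidases, and peroxiredoxins. Each had the smallest p that 3 against 3 mice can give, 0.1 by the exact two-sided permutation test. Gpx3 was the only glutathione peroxidase whose MS_W mice were all above its C_W mice, and the only one whose MS_W mice were all above its MS_O mice. The regulator sum separated by little, with 16.62 FPKM in the lowest MS_W mouse against 16.54 in the highest C_W mouse. Within it, Keap1 had a lower mean in MS_W than in C_W. The MS_O mice were all below the MS_W mice for glutathione synthesis and recycling, glutathione peroxidases and glutathione S-transferases. With 12 libraries, C_O vs. MS_O and C_W vs. C_O overlapped in all 9 sums, but this depended on C_O72. Without it, the other C_O mice were below all MS_O mice for regulators, heme oxygenases and Nqo1, and superoxide dismutases and catalase. The same held for the thioredoxin system and for peroxiredoxins and sulfiredoxin (251 and 245 FPKM against 280.1 to 296). They were also below all C_W mice for regulators and for heme oxygenases and Nqo1. The remaining sums still overlapped, and groups of 2 mice separate more easily than groups of 3. The sum over all 37 genes overlapped in each of the 4 comparisons, with 1403, 1226 and 1321 FPKM in C_W against 1381, 1436 and 1689 in MS_W (exact two-sided permutation p = 0.2). Without C_O72, the other C_O mice (1276 and 1321 FPKM) were below all MS_O mice (1331 to 1483 FPKM).

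**Figure D4:**
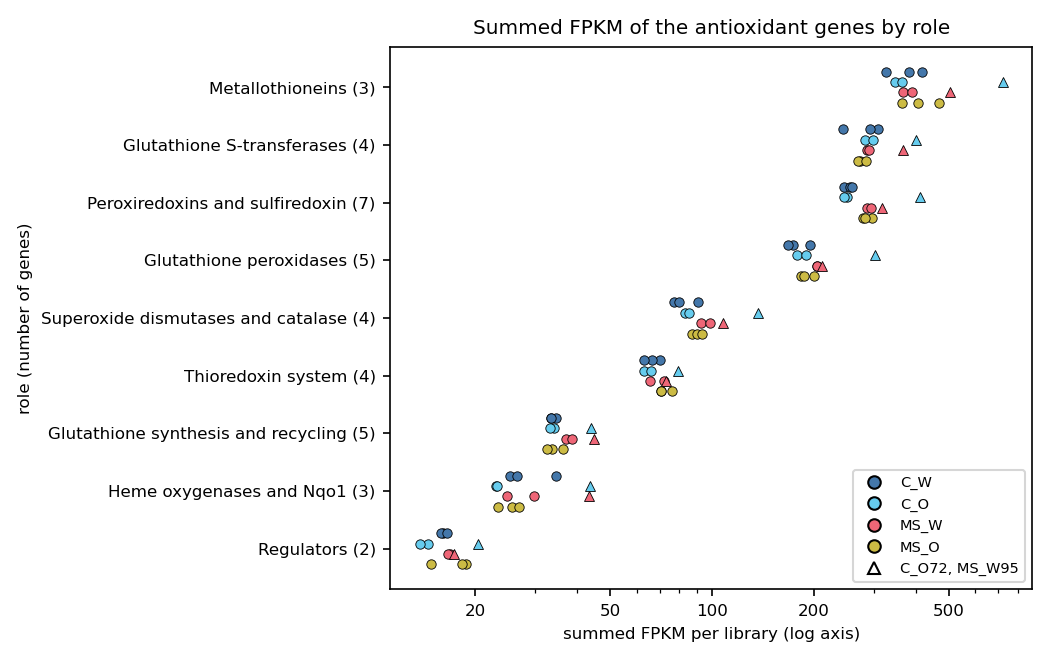
Summed FPKM per library (log x axis) for the 9 roles (y axis, with the number of genes), coloured by group, with C_O72 and MS_W95 as triangles. The triangles lie at the right end of most rows, as for the metallothioneins at 723 and 505 FPKM against 327 to 468 in the other 10 libraries.

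A wider list of the same pathway held 75 symbols of the table, 72 rows of which were tested: partners of NRF2, other glutathione enzymes, other thiol and selenium proteins, and genes of NADPH supply, iron storage and quinone reduction. None passed the adjusted limma threshold with 12 libraries, and at an unadjusted limma p under 0.05 the counts of higher and lower genes were 3 and 4 in C_W vs. MS_W (background 6.71% and 3.79%), 4 and 1 in C_O vs. MS_O (6.69% and 2.18%), 2 and 1 in C_W vs. C_O (1.51% and 2.04%), 3 and 0 in MS_W vs. MS_O (2.63% and 3.46%), and 2 and 1 in the interaction (3.6% and 3.63%). Ggt7, of the gamma-glutamyltransferase family, had FPKM values of 35.8, 34.8 and 32.6 in C_W, 28.03, 27.03 and 26.9 in MS_W, 33.1, 30.1 and 34.4 in C_O and 33.01, 30.2 and 33.8 in MS_O. The MS_W mice were all below every other library, with a log2FC of -0.32 in C_W vs. MS_W (limma, SE 0.09, adjusted p = 0.284) and 0.24 in MS_W vs. MS_O (limma, SE 0.09, adjusted p = 0.790).

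Gstm6, a mu class transferase, had FPKM values of 1.82, 1.63 and 1.27 in C_W, 4.55, 3.94 and 2.18 in MS_W, 1.27, 2.56 and 2.14 in C_O and 2.58, 2.76 and 2.26 in MS_O. The MS_W mice were above the C_W mice, with a log2FC of 0.79 (limma, SE 0.22, adjusted p = 0.299) that became 1.03 and passed with 10 libraries (limma, adjusted p = 0.0487). Sesn3, a stress-inducible sestrin, also passed with 10 libraries, with a log2FC of 0.48 in C_W vs. MS_W (limma, adjusted p = 0.0461) against 0.32 (limma, adjusted p = 0.489) with 12, MS_W95 being at 9.10 FPKM where MS_W31 and MS_W75 were at 12.8 and 13.3. In C_O vs. MS_O the smallest p-values were those of the thioredoxin reductase Txnrd3 (log2FC 0.73, SE 0.20, limma, adjusted p = 0.479) and the methionine sulfoxide reductase Msra (0.40, SE 0.14, limma, adjusted p = 0.479).

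Txnrd3 had FPKM values of 2.24, 2.58 and 1.69 in C_W, 2.58, 2.44 and 2.82 in MS_W, 1.41, 1.81 and 3.01 in C_O and 3.04, 4.54 and 4.53 in MS_O. MS_O46 and MS_O78 were well above all other libraries, and MS_O13 exceeded C_O72 by little. In C_W vs. C_O the smallest p-values were those of Gstm2 (log2FC 0.83, SE 0.30, limma, adjusted p = 0.908), which had its highest level in C_O72, and of the NRF2 competitor Bach2 (-0.45, SE 0.18, limma, adjusted p = 0.908). In MS_W vs. MS_O, beside Ggt7, it was that of Mgst3, a microsomal transferase (0.44, SE 0.15, limma, adjusted p = 0.790), and in the interaction those of Ggt7 (0.31, SE 0.12, limma, adjusted p = 0.665) and Msra (0.48, SE 0.20, limma, adjusted p = 0.665).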

How the data were processed

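RNA of 12 whole brains, 3 per group, was sequenced as stranded poly(A) libraries in paired-end mode. Per the labels and the study's methods, the authors trimmed reads with cutadapt 1.9, mapped them to mm10 with HISAT2 2.0.4 and assembled and quantified transcripts with StringTie 1.3.4d and Ballgown (versions from the submitters' processing notes, which also name edgeR and DESeq2). The deposited FPKM values are per gene, with 0.0001 where no estimate was made. The deposited estimated counts are whole numbers per gene. Whether quantification used the strand is not given in the sources used here.

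Samples were grouped by their labels. The 37 genes and the other lists were chosen with earlier results of these data known. FPKM were taken as log2(FPKM + 1), genes with a mean of at least 0.1 FPKM were kept, and 1 fit of the 4 groups was made with limma 3.58.1 (lmFit, eBayes with trend, R 4.3.3) with Benjamini-Hochberg adjustment over 21393 genes, tested on simulated data. The tests are two-sided. Sums by role were compared by exact permutation tests over 3 against 3 mice, 4 comparisons of 10 sums. Alternatives were a pseudocount of 0.1, no filter, a mean of at least 1 FPKM, quantile normalization, centring on the median, robust eBayes, a fit of the 2 groups only, edgeR 4.0.16 and DESeq2 1.42.0 on the estimated counts, 10 libraries, and each library left out in turn.

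Values per library are given for genes that passed, for the 3 smallest p-values of each comparison, for genes with 1 library at least 2 times above or below each other library (there were none), and for the most and least abundant gene of each role. Gclm, Gss, Cat, Prdx1, Prdx3 and Mt2 were added after their values were seen. Of the wider pathway list, the genes that passed and the 2 smallest p-values of each comparison are named. For shared sequence, 100-base stretches of GENCODE M21 transcripts were compared. The Opla symbol had no row in the table and Nnt was on 2 rows.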

Additional observations from a re-analysis of the deposited data

How the results depend on the processing

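No paired analysis was possible because the mouse numbers are not shared between groups. None of the 15 differences named by their p-values changed direction under an alternative. Other differences of the 37 genes did: with 10 libraries the sign turned for 7 genes in C_W vs. MS_W, 21 in C_O vs. MS_O, 13 in C_W vs. C_O, 9 in MS_W vs. MS_O and 10 in the interaction, Mt1 and Mt2 among them each time. The count of all genes past the adjusted threshold moved most: for C_W vs. MS_W from 1 to 121 when those groups alone were fitted, 389 by DESeq2, 246 with 10 libraries and 0 to 101 with a library left out; for C_O vs. MS_O from 1 to 2, 172, 3 and 1 to 112; for MS_W vs. MS_O from 1 to 12, 79, 58 and 1 to 31. For C_W vs. C_O it moved from 0 to 54 by DESeq2, 1 with 10 libraries and 0 to 4 with a library left out, and for the interaction from 0 to 151, 31 and 0 to 20. Of the 37 genes, 1 (Gpx3) was counted in C_W vs. MS_W in the fit of those groups alone (limma, adjusted p = 0.00989), by DESeq2 (adjusted p = 0.0236), with 10 libraries and without C_O72 (0 to 1 over the libraries left out), and 1 (Gpx3) in the interaction by DESeq2 (log2 -2.98, adjusted p = 0.0206). The cause was not tested. In the 10-library fit and where 1 library was left out, groups of 2 mice were assumed to vary like the others. No scaling moved the median of all genes by more than 0.0878 on the log2 scale. This largest shift came from centring in C_W vs. MS_W and turned the sign of that median, from 0.06 to -0.03. The share of all genes with a log2FC above 0 went there from 62.1% to 44.8%.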
